A study of Homo sapiens with 8 samples.

Results

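The growth factor and receptor genes examined here were 4 ligand genes, VEGFA, PDGFA, PDGFB and TGFB1, and 6 receptor genes, EGFR, IGF1R, TGFBR1, TGFBR2, FGFR1 and MET. These 10 genes, of 20046 protein-coding genes in the GENCODE annotation of hg38, were taken by name, several of them for GC-rich promoters. No measured value entered the rule, but earlier results of these data were known when the genes were chosen. For each gene, the peaks whose summit lay inside the gene or within 5 kb of it were collected from 2 lists of Sp1 peaks and 2 lists of CTCF peaks. The 4 lists placed 4, 3, 25 and 21 peaks at the 10 genes, for Sp1 antibody 1, Sp1 antibody 2, CTCF replicate 1 and CTCF replicate 2 respectively.

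The peaks came from chromatin immunoprecipitation followed by sequencing (ChIP-seq) of U-2 OS, a human osteosarcoma cell line. The Sp1 libraries were made from a line in which the SP1 gene itself carries a V5-Halo tag, with 1 library for the antibody MA5-32497 (antibody 1), 1 for PA5-29165 (antibody 2), 1 for normal rabbit IgG and 1 input. The titles of those libraries call the cells parental, while their genotype gives the knock-in. The CTCF libraries were 2 replicates with the antibody ab128873 and 2 inputs from clone C32, a single clone with a FLAG-Halo tag on CTCF, whereas the design text names wild type cells. All 8 libraries were fixed with 1% formaldehyde for 6 min, none was treated otherwise, and no untagged cells are compared here. Sp1 and CTCF were profiled in different lines and on different sequencers, so the factor cannot be told apart from the experiment. With 1 library for each Sp1 antibody and no statement that the CTCF replicates came from separate cultures, values are given side by side without p-values.

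Growth factors are secreted proteins that bind receptors on the cell surface. Most of the receptors listed here are receptor tyrosine kinases, which phosphorylate themselves as dimers when their ligand binds. TGFBR1 and TGFBR2 are serine/threonine kinases that pass the TGF-β signal to SMAD proteins. Many of these genes have GC-rich promoters, often without a TATA box, in which GC boxes, the sequence bound by the zinc fingers of Sp1, are frequent. CTCF is a zinc finger protein that binds a longer and more specific sequence and, with cohesin, anchors chromatin loops.

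Promoter sequences are shown to set the GC boxes of TGFB1, which had an Sp1 peak at its start, beside those of 4 genes that had none there. They are RefSeq promoters of GRCh38.p14, from 250 bases before to 50 bases after the start, on the coding strand. Of the 10 genes, 7 matched an entry at the start of the MANE transcript, the reference transcript of each gene. VEGFA, PDGFB and FGFR1 did not. Capitals mark the GC box, GGGCGG or its reverse complement CCGCCC, with overlapping matches counted separately. A match is a description of the sequence and not a bound site.

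PDGFA, chr7:519797-520096, minus strand: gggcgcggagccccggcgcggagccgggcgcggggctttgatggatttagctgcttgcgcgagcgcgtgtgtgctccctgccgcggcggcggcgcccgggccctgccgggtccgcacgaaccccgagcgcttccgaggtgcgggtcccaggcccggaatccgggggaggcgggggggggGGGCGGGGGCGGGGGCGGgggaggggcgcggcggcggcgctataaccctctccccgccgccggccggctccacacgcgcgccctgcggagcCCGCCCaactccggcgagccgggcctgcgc

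TGFB1, chr19:41353873-41354172, minus strand: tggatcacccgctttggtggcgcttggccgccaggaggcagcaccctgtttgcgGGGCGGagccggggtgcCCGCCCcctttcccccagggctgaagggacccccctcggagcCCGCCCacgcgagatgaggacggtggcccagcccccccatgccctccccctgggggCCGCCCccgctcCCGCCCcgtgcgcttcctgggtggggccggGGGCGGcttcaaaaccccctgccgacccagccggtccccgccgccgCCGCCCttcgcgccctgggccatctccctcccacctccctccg

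EGFR, chr7:55018767-55019066, plus strand: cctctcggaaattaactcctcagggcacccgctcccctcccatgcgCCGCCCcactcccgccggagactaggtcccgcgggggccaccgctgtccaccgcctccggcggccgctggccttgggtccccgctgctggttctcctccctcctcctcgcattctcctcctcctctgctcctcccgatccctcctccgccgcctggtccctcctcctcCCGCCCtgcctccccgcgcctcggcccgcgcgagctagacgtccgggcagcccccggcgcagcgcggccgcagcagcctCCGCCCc

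IGF1R, chr15:98648289-98648588, plus strand: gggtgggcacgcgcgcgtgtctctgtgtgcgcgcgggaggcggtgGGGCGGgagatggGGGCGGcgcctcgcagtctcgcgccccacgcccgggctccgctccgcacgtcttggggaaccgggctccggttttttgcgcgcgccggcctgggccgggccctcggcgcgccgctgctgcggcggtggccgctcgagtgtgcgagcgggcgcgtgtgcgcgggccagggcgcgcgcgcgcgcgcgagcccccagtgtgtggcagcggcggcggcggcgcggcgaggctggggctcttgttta

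MET, chr7:116671946-116672245, plus strand: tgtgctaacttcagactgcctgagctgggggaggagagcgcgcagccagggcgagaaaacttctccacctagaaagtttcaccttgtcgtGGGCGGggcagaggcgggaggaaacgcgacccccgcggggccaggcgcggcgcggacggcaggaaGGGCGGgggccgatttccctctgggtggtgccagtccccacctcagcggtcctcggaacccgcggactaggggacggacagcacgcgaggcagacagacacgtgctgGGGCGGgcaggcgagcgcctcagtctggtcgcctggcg

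The TGFB1 promoter held 7 GC boxes, a number reached by 2.44% of the 14473 RefSeq promoters at MANE starts. PDGFA had 4 boxes, 3 of them in a single run of G and C, and 14.6% of promoters had at least as many. EGFR and MET had 3 each (24.8% of promoters had at least as many), IGF1R and TGFBR2 had 2 each (40.5%), and TGFBR1 had none. Across all of these promoters, 62.7% held at least 1 box. The order by base composition differed from the order by number of boxes. TGFBR1, without a box, was 78.7% G and C, above 94.5% of promoters, and PDGFA was the richest at 81.7%. TGFBR2 was the poorest of the 7 at 61.7%, near the median of 64% for all promoters.

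A summit within 1 kb of any annotated start of the gene is called a promoter peak below. At VEGFA and TGFB1 further summits lay within 1 kb of other starts of the gene. There, the promoter peak described is the one nearest the MANE start. In the Sp1 antibody 1 list 2 of the 10 genes, VEGFA and TGFB1, had one, against 37.3% of all protein-coding genes. In the antibody 2 list only VEGFA had one, against 24.1%. A promoter peak shared by both antibodies, with at least 1 base in common, was present at 1 gene, VEGFA, against 20.9% of all genes. Of the 7 promoters with a sequence, 1 had a summit of antibody 1 within 1 kb of its start, that of TGFB1, and 0 had a summit of antibody 2. The matching shares of all 14473 promoters were 36.3% and 23.4%. VEGFA, the gene with a promoter peak of both antibodies, is not among these 7.

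Over all promoters, the share with an Sp1 peak was lowest without a GC box and highest with 2 boxes. With no box, 20.1% of promoters had an antibody 1 peak (95% Wilson interval 19.1 to 21.2%), and with 2 boxes 51.4% did (49.4 to 53.5%). With 5 or more boxes, the class that holds TGFB1, the share was 42.1% (39.3 to 44.9%). With 3 or 4 boxes, the class of PDGFA, EGFR and MET, it was 46.8% (44.8 to 48.8%), and none of those 3 genes had a peak. For antibody 2 the share was 15.0% with no box, 32.5% with 2 boxes and 19.7% with 5 or more. These intervals cover counting error only, and neighbouring promoters can share 1 peak.

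**Figure D1:**
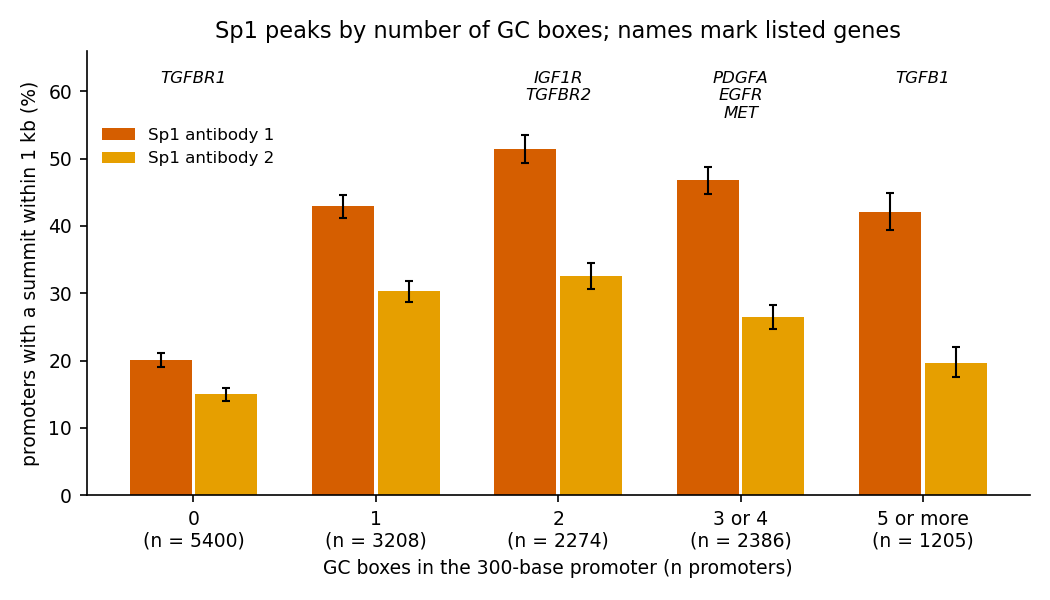
Bars give the percentage of RefSeq promoters with an Sp1 summit within 1 kb of the start (vertical axis) by the number of GC boxes in the 300-base promoter (horizontal axis), for both antibodies, with 95% Wilson intervals and the class of each listed gene named above the bars. Shares are lowest without a GC box, at 20.1% and 15.0%, and highest with 2 boxes, at 51.4% and 32.5%.

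VEGFA encodes the principal growth factor of blood vessel endothelium (chr6:43770184-43786487, plus strand). Antibody 1 gave a promoter peak at chr6:43769675-43770430 with a 6.73-fold enrichment over control and a −log10 q of 11.7, and its summit lay 27 bp upstream of the MANE start. Antibody 2 gave a peak at chr6:43769627-43770315 with a fold of 3.99 and a −log10 q of 3.49, with the summit 303 bp upstream of the start. Both Sp1 peaks were weak within their own lists, above 40.0% and 11.3% of the peaks respectively. A further antibody 1 peak (fold 4.38, −log10 q 4.34) lay 4629 bp downstream of the start, in an intron of the MANE transcript and 487 bp inside a shorter VEGFA transcript. It was absent from the antibody 2 list. The window of 101 bp around the promoter summit of antibody 1 held 2 GC boxes, and that of antibody 2 held none.

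TGFB1 encodes transforming growth factor β1, a secreted regulator of cell growth and of the extracellular matrix (chr19:41301587-41353922, minus strand). Its promoter carried an antibody 1 peak at chr19:41353948-41354384 with a fold of 13.9 and a −log10 q of 35.4, higher than 80.5% of the peaks in that list. The summit lay 144 bp upstream of the start, inside the stretch printed above, and its window held 2 GC boxes. It also lay 103 bp from a start of TMEM91, so the peak cannot be given to 1 of these promoters alone. Antibody 2 had no peak there, and its nearest summit upstream was 10.3 kb away.

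The strongest Sp1 peak at any of the 10 genes was an antibody 2 peak of 141-fold with a −log10 q of 866 (chr19:41309884-41310940), above 99.5% of that list. Antibody 1 had a 12.4-fold peak at the same place (−log10 q 31.3). Both summits lay inside the TGFB1 annotation but over 43 kb downstream of the MANE start and outside the MANE transcript, in CCDC97 and within 33 bp of the start of a long noncoding RNA, ENSG00000286177. By position it is a promoter peak of those neighbours, and it enters here because the longest TGFB1 annotation spans it. The log2 ratio of the 2 folds, antibody 2 over antibody 1, was 3.50, whereas the VEGFA promoter had −0.75 and the median of all 4281 shared Sp1 peaks was −0.64. A ratio above that of the CCDC97 site was found at 1.47% of the shared peaks. These ratios compare 1 library with 1 library. The 101 bases around its antibody 2 summit are shown because they hold no GC box on either strand, so no letter is in capitals. Their label names CCDC97, the gene they lie in. The start nearest to the summit, 33 bp away, is that of ENSG00000286177 and not of CCDC97.

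CCDC97 start, chr19:41310395-41310495, plus strand: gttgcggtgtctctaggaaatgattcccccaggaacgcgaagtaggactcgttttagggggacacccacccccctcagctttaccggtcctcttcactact

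IGF1R encodes the receptor of insulin-like growth factor 1 (chr15:98648539-98964530, plus strand). Antibody 2 had a peak at chr15:98646956-98647372, with a fold of 6.00 and a −log10 q of 6.73, whose summit was 1366 bp upstream of the start and 198 bp inside the long noncoding RNA IRAIN. The nearest antibody 1 summit was 366 kb from the start. No GC box lay within 50 bp of the antibody 2 summit. Of all peaks at the listed genes, 2 of 4 for antibody 1 and 0 of 3 for antibody 2 had a GC box in that window, against 52.8% and 36.7% of the whole lists.

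The other 7 genes had no Sp1 peak in or within 5 kb. Counting peaks anywhere in or near the gene, 2 of 10 genes were in the antibody 1 list and 3 of 10 in the antibody 2 list, against 44.3% and 31% of all protein-coding genes. The listed genes were long, with a median length of 60.5 kb against 27.4 kb for all 20046 genes. Per 100 kb of gene and flank, they held 0.379 and 0.285 Sp1 peaks, against 0.526 and 0.338 over all protein-coding genes.

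Distances to the nearest Sp1 summit differed widely between these 7 genes. PDGFA, which encodes the A chain of platelet-derived growth factor, had its nearest antibody 1 summit 20.0 kb upstream and its nearest antibody 2 summit 83.7 kb downstream. PDGFB, the gene of the B chain, had both about 47 kb upstream, at 47.2 and 47.0 kb. Neither ligand gene had an Sp1 peak in its promoter.

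Among the receptors, TGFBR1 had both nearest summits 117 kb downstream, and EGFR, the receptor of epidermal growth factor, had them 260 kb and 347 kb away. TGFBR2, which binds the ligand first and then engages TGFBR1, had an antibody 2 summit 9.17 kb upstream with a fold of 8.37, outside the 5 kb limit, and no antibody 1 summit within 926 kb. MET, the receptor of hepatocyte growth factor, was the most distant, with nearest summits 1512 kb and 3053 kb downstream. Only 1.71% and 0.986% of 19061 MANE starts lay farther from a summit in the respective list, where the medians were 29.0 kb and 68.2 kb. A missing peak means that none passed the limit of the list, near a q of 0.05, and not that Sp1 was absent.

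**Figure D2:**
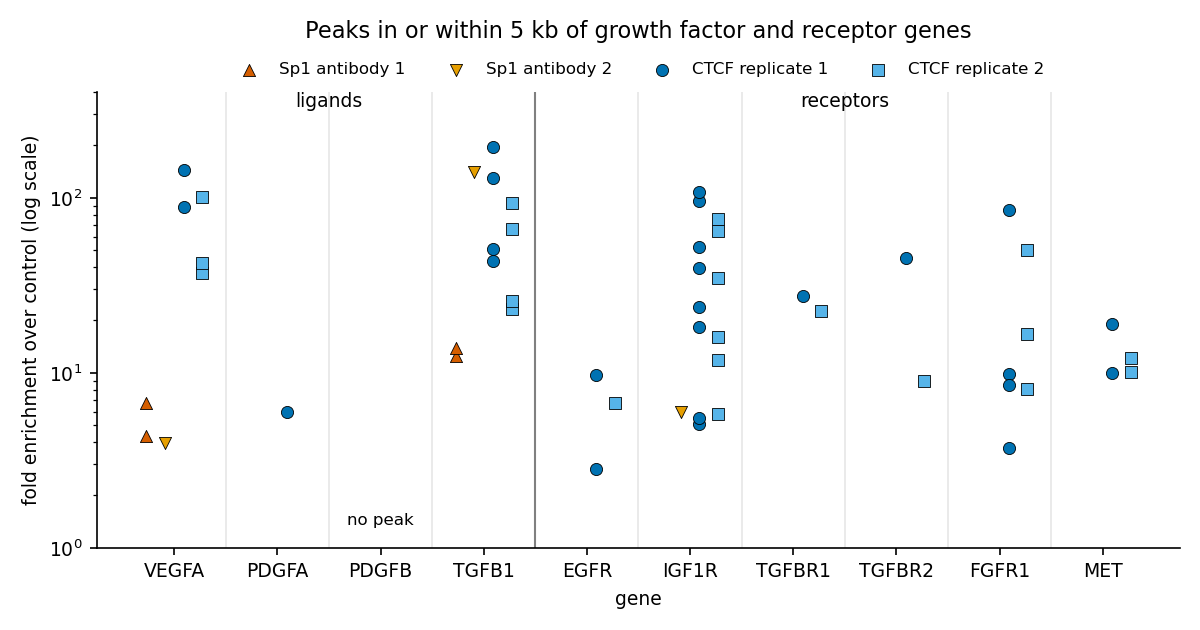
Each symbol is 1 peak with its summit in or within 5 kb of the gene named on the horizontal axis, and the vertical axis gives its fold enrichment over control on a log scale. Sp1 symbols appear at VEGFA, TGFB1 and IGF1R only, and CTCF symbols at every gene but PDGFB. The antibody 2 symbol at 141-fold is the site in CCDC97, near its start.

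CTCF peaks were present at most of the same genes. Replicate 1 had a peak at 9 of the 10 genes and replicate 2 at 8, against 68% and 61.5% of all protein-coding genes. A peak shared by both replicates lay at 8 genes, including all 6 receptors but only VEGFA and TGFB1 of the 4 ligands, against 60.9% of all genes. Per 100 kb, the genes held 2.37 and 1.99 CTCF peaks, against 1.81 and 1.48 over all protein-coding genes. Promoter peaks were found at 6 genes in replicate 1 (VEGFA, PDGFA, TGFB1, IGF1R, FGFR1 and MET) and at 4 in replicate 2 (VEGFA, TGFB1, IGF1R and MET), against 32.4% and 24.8% of genes. FGFR1 is counted only through other annotated starts, since its promoter peaks lay 42.7 kb and 3140 bp downstream of the MANE start.

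Of the 25 replicate 1 peaks, 19 were overlapped by a replicate 2 peak, where the whole list had 79.8%. The summits of the 19 pairs were a median of 8 bp apart and at most 32 bp. Fold enrichment was lower in replicate 2 at 18 of the 19 sites, with a median log2 ratio of −0.91, and the 34125 shared peaks of the whole lists had a median of −0.89. The difference in fold between the replicates was thus close to that of the whole lists. The 19 shared sites ranged from 8.53 to 195-fold in replicate 1 with a median of 45.4. The 6 sites of replicate 1 alone ranged from 2.84 to 9.84 with a median of 5.29, and the 8640 such peaks of the whole list had a median of 5.71.

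**Figure D3:**
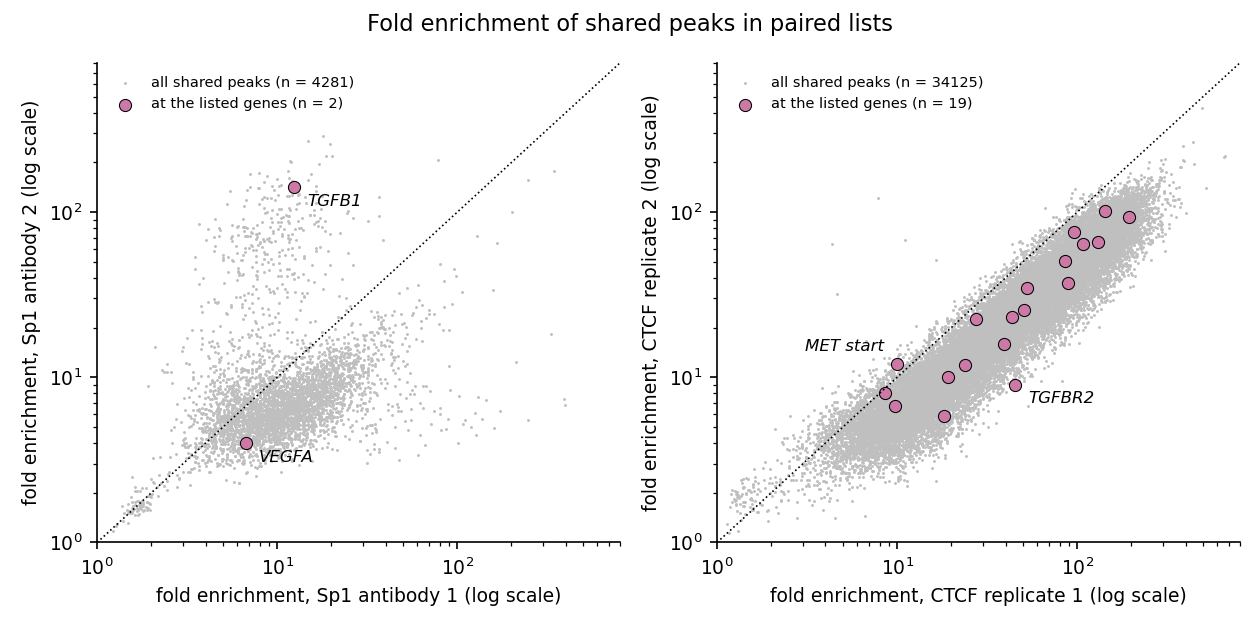
Each grey dot is a peak shared by the 2 lists of a panel, placed by its fold enrichment in the first list (horizontal axis, log scale) and in the second (vertical axis, log scale), for the Sp1 antibodies on the left and the CTCF replicates on the right. Filled circles are the 2 and 19 shared peaks at the listed genes, and only the peak at the MET start lies above the dotted line of equal fold on the right.

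Among the ligand genes, TGFB1 had the strongest CTCF peak in replicate 1 and by mean, with 195-fold in replicate 1 and 93.8-fold in replicate 2 (144 ± 71.7, SD, n = 2), while VEGFA had the strongest in replicate 2. The TGFB1 peak lay 45.2 kb downstream of the start and 1471 bp before CCDC97. The peak at the TGFB1 promoter, 224 bp upstream of the start, had 130 and 66.3-fold (98.1 ± 45.0, SD, n = 2). Its summits lay closer to a start of TMEM91, 23 bp away in replicate 1 and 15 bp in replicate 2. This peak too cannot be given to 1 promoter alone. The 2 other TGFB1 sites, 1283 bp and 31997 bp downstream, had folds of 50.9 and 25.6, and of 43.7 and 23.3. The 4 sites of TGFB1 therefore kept the same direction between the replicates, with log2 ratios from −0.91 to −1.06.

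At VEGFA, the CTCF peak 584 bp upstream of the start had 144 and 102-fold (123 ± 29.7, SD, n = 2), higher than 94.0% and 98.0% of the respective lists. A site 3313 bp downstream had 89.2 and 37.3-fold. Replicate 1 called 1 wide peak from there to chr6:43775337, in which replicate 2 called a separate summit 4710 bp downstream with a fold of 42.4. PDGFA had a single CTCF peak, of 5.96-fold and in replicate 1 only, 34 bp before one of its own starts and 396 bp upstream of the MANE start. PDGFB had no peak in any of the 4 lists, and its closest CTCF summits, of 18.5 and 9.34-fold, lay 7.33 kb outside the gene, beyond the limit.

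IGF1R, the longest of the genes, carried the most CTCF peaks, 8 in replicate 1 and 6 in replicate 2. A site in an intron 131 kb downstream of the start had 108 and 64.3-fold (86.3 ± 31.1, SD, n = 2), and one 10.9 kb downstream had 95.6 and 75.4-fold (85.5 ± 14.2, SD, n = 2), so their order differed between the replicates. Further intronic sites had folds of 39.5 and 15.9 (203 kb), 52.4 and 34.8 (233 kb), and 23.9 and 11.9 (256 kb). The site 862 bp upstream of the start was weaker, with 18.2 and 5.80-fold. Sites in exon 1 and in the first intron, of 5.07 and 5.50-fold, were in replicate 1 only.

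TGFBR1 had a single intronic site 35.8 kb downstream of its start with folds of 27.4 and 22.7 (25.0 ± 3.38, SD, n = 2). TGFBR2 had a single site too, in the untranslated part of exon 7, with 45.4-fold in replicate 1 and 9.04-fold in replicate 2. Its log2 ratio of −2.33 was the lowest of the 19, and 0.188% of all shared CTCF peaks were lower. MET had a promoter site 296 bp upstream of the start, with folds of 9.98 and 12.1 (11.0 ± 1.51, SD, n = 2). It was the only one of the 19 that was higher in replicate 2 (log2 ratio 0.28), as were 2.77% of all shared CTCF peaks. A second MET site, 4.66 kb past the end of the gene, had folds of 19.1 and 10.1. EGFR had the weakest shared site by mean, in an intron 125 kb downstream of the start, with folds of 9.78 and 6.73 (8.25 ± 2.15, SD, n = 2). It also had a 2.84-fold peak in coding exon 20 in replicate 1 only. That peak was among the weakest of its list, with a −log10 q of 2.25 and a fold above only 0.718% of the peaks.

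Of the 13 CTCF sites with a CTCF core motif within 50 bp of the replicate 1 summit, 10 are shown as 30 bases of hg38 each, on the strand of the core, so that strong and weak sites can be compared. Capitals mark the core of 12 bases, with at most 1 mismatch to its consensus.

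TGFB1, 45.2 kb downstream, chr19:41308679-41308708, minus strand: caggagaggCCAGCAGAGGGCgctgtagcc

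TGFB1, 31997 bp downstream, chr19:41321927-41321956, plus strand: ggcctctatCCACTGGAGGGCagtagcaag

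TGFB1, 1283 bp downstream, chr19:41352634-41352663, minus strand: ggaggggggCCCCCAGGGGGCgccggagtg

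EGFR, intron, chr7:55144503-55144532, plus strand: aaggggtgcCCAGCAGAGGGAgtcatatcc

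EGFR, exon 20, chr7:55181324-55181353, minus strand: ggcagatgcCCAGCAGGCGGCacacgtggg

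IGF1R, 862 bp upstream, chr15:98647664-98647693, minus strand: ccgcggcggCCGCCAGAGGGCgcggcgggc

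IGF1R, 10.9 kb downstream, chr15:98659391-98659420, minus strand: cccttctggCCACTAGATGGAgcctatgca

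IGF1R, 131 kb downstream, chr15:98779770-98779799, plus strand: cacagccctCCAGTAGAGGGCacacgagag

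TGFBR1, intron, chr9:99140890-99140919, minus strand: ccatggtgaCCACCAGATGACagcatcagc

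TGFBR2, exon 7, chr3:30693696-30693725, minus strand: agaaactcaCCACTAGAGGTCaatgggcaa

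The TGFB1 and IGF1R sites with the highest folds in replicate 1, of 195 and 108, were the 2 replicate 1 sites whose core had no mismatch. The VEGFA site of 144-fold had 1 mismatch, and in replicate 2 cores without a mismatch also lay at the separate VEGFA and FGFR1 summits, of 42.4 and 16.7-fold. The core was found at 13 of 25 peaks in replicate 1 and 14 of 21 in replicate 2, against 50.8% and 54.3% of the lists. In windows 500 bp away from the replicate 1 summits of the whole list, 0.734% held one. Of the 19 shared sites 12 held a core, and of the 6 sites of replicate 1 alone 1 did, the EGFR exon 20 site. The core lay on the strand of the gene at 5 of the 13 and on the other strand at 8. At the TGFB1 promoter, 130-fold in replicate 1, no core with at most 1 mismatch lay within 50 bp of the summit, while 3 GC boxes did.

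FGFR1 encodes a receptor of fibroblast growth factors and lies on the minus strand. It had 4 CTCF peaks in replicate 1 and 3 in replicate 2. The strongest, 57.8 kb downstream, just past the end of the MANE transcript, had 85.1 and 50.5-fold (67.8 ± 24.5, SD, n = 2), and in replicate 2 a separate summit of 16.7-fold lay inside the same wide replicate 1 peak. A site 1608 bp upstream had 8.53 and 8.07-fold, the pair closest to equal among the 19, with a log2 ratio of −0.08. Another 2 peaks, of 9.84 and 3.74-fold, were in replicate 1 only. They lay 42.7 kb and 3140 bp downstream of the MANE start, 293 and 701 bp from other annotated FGFR1 starts. The nearest Sp1 summits were 82.3 kb and 292 kb downstream.

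Peaks of Sp1 and CTCF were compared at the same genes. Of the 4 antibody 1 peaks, 3 were overlapped by CTCF in replicate 1 and 3 in replicate 2, against 28.8% and 21.6% of that list. Of the 3 antibody 2 peaks, 2 were overlapped in replicate 1 and 1 in replicate 2, against 26.3% and 20.2%. The VEGFA promoter and the CCDC97 site are in both antibody lists, so these counts are not of separate places. Of the 2 shared Sp1 sites, the VEGFA promoter was overlapped by a CTCF peak shared by both replicates and the CCDC97 site was not, where 23.1% of all shared Sp1 peaks were. In the whole lists, 49.2% of antibody 1 peaks were overlapped by an antibody 2 peak. The closest summits were at the TGFB1 promoter, where the Sp1 antibody 1 summit was 80 bp from the CTCF summit of replicate 1 and 88 bp from that of replicate 2. At the VEGFA promoter the gap was 557 bp for antibody 1 and 281 bp for antibody 2, measured to replicate 1. The antibody 1 peak 4629 bp into VEGFA lay 81 bp from the separate replicate 2 summit. The IGF1R antibody 2 summit lay 504 bp from the CTCF summit of replicate 1 and 472 bp from that of replicate 2, and the CCDC97 site over 1.6 kb from either.

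**Figure D4:**
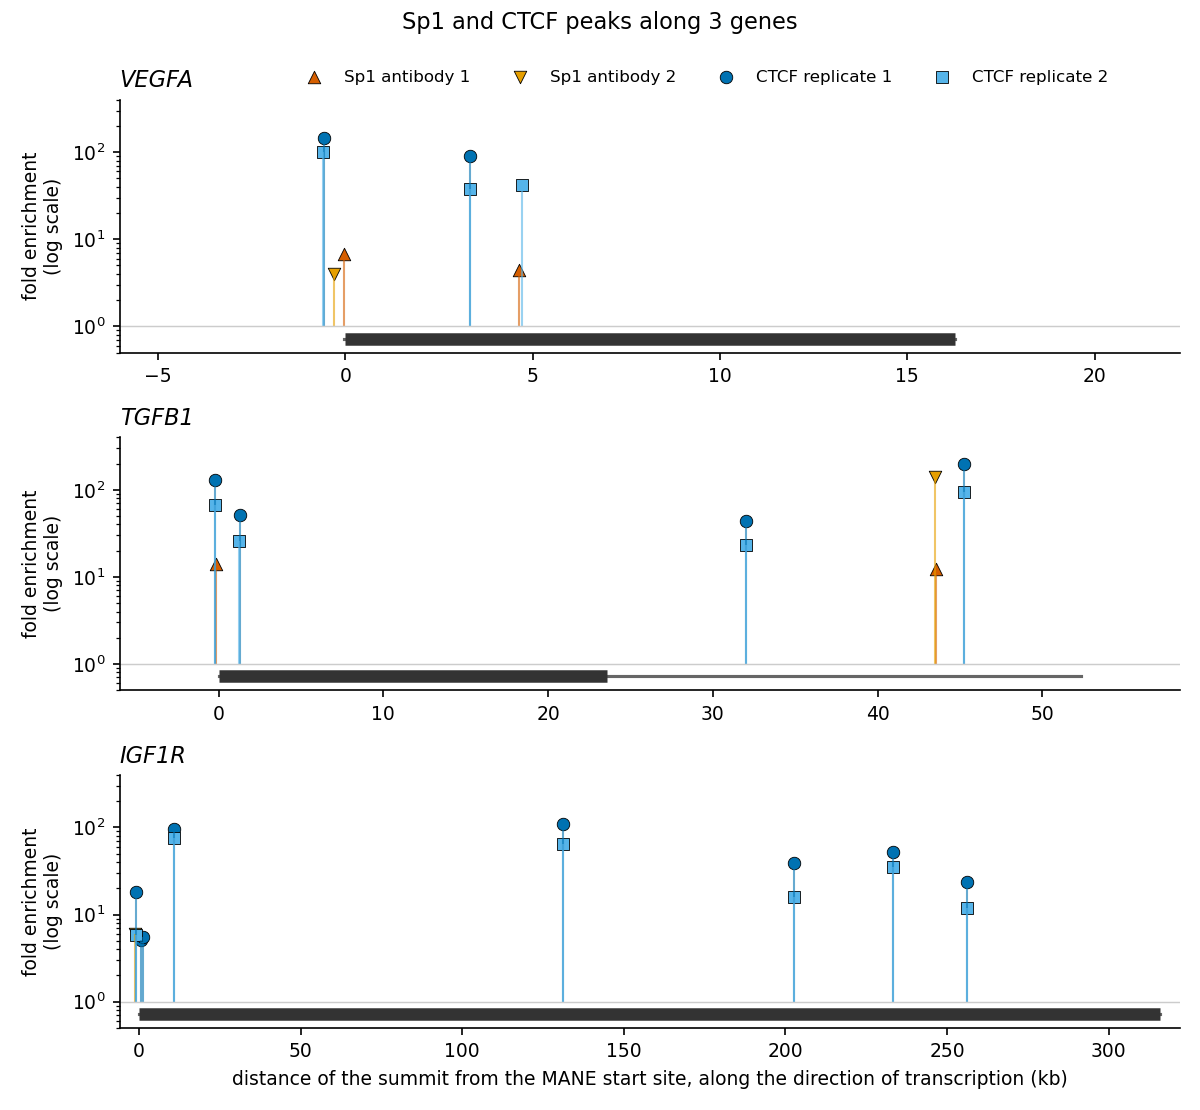
Peak summits along VEGFA, TGFB1 and IGF1R, by distance from the MANE start in kb (horizontal axis) and fold enrichment on a log scale (vertical axis), with the MANE transcript as a thick bar and the rest of the annotated gene as a thin line. At VEGFA and TGFB1 the Sp1 promoter symbols stand next to CTCF symbols of 66.3 to 144-fold, and at IGF1R the Sp1 antibody 2 symbol is mostly hidden behind the CTCF symbols upstream of the start.

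The IgG list held 106 peaks in all and 0 at the 10 genes. The 4 lists used held 8706, 5973, 42765 and 36082 peaks, with median folds of 7.72, 6.75, 27.5 and 20.0. They give no read numbers, and the study's table of read numbers was not used here, so the depth behind each fold is not given. At the listed genes, the median fold was 9.59 for antibody 1, 6.00 for antibody 2, 27.4 for CTCF replicate 1 and 23.3 for replicate 2.

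Other genes of these pathways were taken from a list of 20 ligands and 21 receptors. Of these 41 genes, 9 had an antibody 1 peak and 5 an antibody 2 peak in or within 5 kb, while 38 and 37 had a CTCF peak in replicate 1 and 2. Promoter peaks of antibody 1 were found at 7, namely VEGFB, AREG, IGF2, KDR, ERBB2, ERBB3 and FGFR4, and of antibody 2 at 2, ERBB2 and PDGFRA. A promoter peak shared by both antibodies was present at ERBB2 alone, a receptor of the EGFR family. A CTCF peak shared by both replicates was present at 37 of the 41. These counts stand beside the shares of all protein-coding genes given above. For peaks in or within 5 kb the shares were 44.3% and 31% for Sp1, and 68% and 61.5% for CTCF. They were 37.3% and 24.1% for Sp1 promoter peaks, 20.9% for shared Sp1 promoter peaks and 60.9% for shared CTCF peaks. The lengths of the 41 genes were not compared with those of all genes, and longer genes have more room for a peak. The only gene without a peak in any list was BMPR2, a receptor of bone morphogenetic proteins.

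The strongest antibody 1 peaks among the 41 genes were at INSR, the insulin receptor, with 16.1-fold in an intron, at FGFR4 with 14.5-fold, and at VEGFB with 13.5-fold, the last of them nearest to a start of DNAJC4. For antibody 2 they were at PDGFRA with 16.2-fold, ERBB2 with 12.0-fold and INSR with 11.0-fold. The PDGFRA summit of 16.2-fold lay 4065 bp downstream of the nearest PDGFRA start, so it is not the promoter peak counted above. The INSR site was present for both antibodies. By mean fold, the strongest shared CTCF sites were at FGF1 (170 and 103-fold), PDGFRA (203 and 54.3-fold) and NRP1, a co-receptor of VEGFA (165 and 91.1-fold). At PDGFRA the replicates were farther apart than at the other 2 genes. Pairs were made by the nearest summit, and the strongest replicate 2 peak in or near PDGFRA was another one, of 79.9-fold.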

How the data were processed

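The processed files are MACS narrowPeak lists, 1 for each immunoprecipitated library, called per library and not pooled. The submitters' processing notes name cutadapt 2.6, Bowtie2 2.4.5, SAMtools 1.15.1, MACS2 2.2.7.1, deepTools 3.5.4 and bedtools 2.27.1, and reads were aligned to hg38. The authors deposited, for each peak, a fold enrichment over control (a ratio), a −log10 p, a −log10 q and an integer score. The study's methods describe peak calling with a liberal p-value limit, without local background and against merged controls. All deposited lists end near a q of 0.05 instead, so whether those settings made them is not settled here.

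Summits were computed from the deposited start and offset with Python 3.11.15, pandas 2.3.3, numpy 2.4.6 and pysam 0.24.0, and placed on GENCODE release 44, counting positions from 1. Peaks were shared when they had 1 bp in common, and folds were then compared as log2 ratios. Percentages over all protein-coding genes, peaks or promoters are the background. The GC box and the CTCF core were searched on both strands in 101 bp around each summit. Counting steps were tested on simulated data. No test across groups was possible with 1 library for each Sp1 antibody.

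All 10 genes are named. Of the other ligands and receptors, the 3 with the highest fold are named for each Sp1 antibody and for the CTCF mean. Genes counted at 7 or fewer, and BMPR2, were named after their values were seen. The 10 genes and the gene lists were chosen with earlier results of these data known. Alternatives changed the distance limits, the q limit, the definition of overlap, the motif and the window.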

Additional observations from a re-analysis of the deposited data

How the results depend on the processing

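Of 55 alternative values, 46 kept the count within 1.5 times or the ratio within its spread, and 9 moved. The median Sp1 log2 ratio rested on 2 sites with an SD of 3.01. It went from 1.38 to 3.50 with summits within 100 bp and still counted as kept. With so wide a spread, that label cannot show that the Sp1 ratio held. With summits within 5 kb of a start, 2 genes had an antibody 2 promoter peak instead of 1. Requiring summits within 100 bp left 1 shared Sp1 site of 2 and 0 Sp1 sites with CTCF instead of 1. Using antibody 1 alone gave 3 Sp1 sites with CTCF, and antibody 2 alone gave 2. The longer GC box was found at 1 antibody 1 peak instead of 2, and a window of 100 bp found a GC box at 1 antibody 2 peak instead of 0. With no mismatch allowed, the CTCF core was at 2 replicate 1 peaks instead of 13 and at 4 replicate 2 peaks instead of 14. The shared CTCF sites, 19 counted from replicate 1, were 21 when counted from replicate 2. With 1 replicate left out no site can be shared. The values then were all peaks of the other list, 21 without replicate 1 and 25 without replicate 2. They are among the 46 but say nothing about sharing. No paired analysis was possible because replicate numbers join the CTCF libraries to inputs only, for which no peak list is used here, and no value comes from a test. The lists hold no read numbers and the study's table of them was not used here, so the limits set by depth are not given.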
